A study of Homo sapiens with 12 samples.

Results

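The genes of the proteasome were examined in polysome profiles of HEK293T cells: every gene whose symbol is PSMA, PSMB, PSMC, PSMD, PSME or PSMG followed by digits, chosen by name alone. The deposited table held 45 such genes among its 15534 gene IDs. PSMA8 and PSMB9, which the name rule would also take, were not analysed here. By their place in the complex the 45 genes fell into 7 of the alpha ring, 7 of the constitutive beta ring, 3 inducible or tissue-restricted beta subunits, 6 ATPases of the base, 3 other subunits of the base, 8 of the lid, 4 of the activator caps and 7 assembly chaperones.

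The proteasome degrades proteins that carry ubiquitin chains. Its core particle stacks outer rings of alpha subunits, which gate the pore, on inner rings of beta subunits, of which PSMB5, PSMB6 and PSMB7 hold the protease sites. In cells exposed to interferon, PSMB8, PSMB9 and PSMB10 take their places and form the immunoproteasome. The regulatory particle has a base, whose ring of PSMC ATPases unfolds substrates, and a lid, whose subunit PSMD14 cuts ubiquitin off, while PSME proteins form other caps and dedicated chaperones build the rings and the base. The genes encode subunits of one machine and are known to be controlled together by the transcription factor NFE2L1.

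The cells were HEK293T, a human embryonic kidney line, treated with a PRMT1 inhibitor, a PRMT4 inhibitor or DMSO, the solvent. PRMT1 and PRMT4 (CARM1) are enzymes that methylate arginines of proteins. Lysates were spun through sucrose gradients of 10 to 50%, which separate mRNAs by the ribosomes they carry. Each treatment gave 4 libraries, the total input and the mRNA carrying 1 ribosome, 2 ribosomes and 3 or more ribosomes, so that there were 12 libraries and 1 per group, with no replicate culture. Which compounds were used, at what dose and for how long, how RNA was selected and whether the counting used the strand is not given in the sources used here.

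Levels were FPKM, fragments scaled to transcript length and library size. The table numbers its ribosome columns R1 to R3. Matching them to 1, 2 and 3 or more ribosomes followed the numbering of the sample titles, an assumption behind all values by fraction. The libraries were shallow, at an estimated 433000 to 602000 fragments, and the median proteasome gene had 2.45 fragments per library. The DMSO input stood apart, with a summed FPKM of 201967 against 329897 to 425444 in the other libraries, and with 2905 of the 10705 genes tested listed at 0. All 6 marker genes of the HEK293T line examined were listed above 0 in all 12 libraries, from a mean of 7.79 FPKM for KRT18 to 907 FPKM for KRT8. Of the blood markers, CD74 averaged 12.6 FPKM, while PTPRC, CD3E, HLA-DRA, HBB and the hepatocyte marker ALB were not analysed here.

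Promoter sequences are shown for 3 catalytic beta subunits, chosen after their levels were seen because these lie far apart: PSMB10, the highest of all 45 genes, PSMB5, a constitutive subunit, and PSMB8, the inducible counterpart of PSMB5. Each runs from 250 bases before to 50 bases after the gene's start, 5′ to 3′ on the minus strand, and comes from RefSeq on GRCh38.p14. Capitals mark GAAANNGAA, most of the core of the interferon-stimulated response element, in PSMB10 (chr16:67936801-67937100), CCAAT in PSMB5 (chr14:23035171-23035470) and GGGCGG, a GC box, in PSMB8 (chr6:32844630-32844929).
PSMB10: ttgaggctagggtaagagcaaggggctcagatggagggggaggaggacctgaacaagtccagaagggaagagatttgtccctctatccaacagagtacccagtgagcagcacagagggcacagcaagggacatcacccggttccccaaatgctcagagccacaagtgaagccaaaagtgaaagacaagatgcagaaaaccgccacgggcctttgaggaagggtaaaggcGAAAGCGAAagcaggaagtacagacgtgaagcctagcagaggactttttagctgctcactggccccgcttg
PSMB5: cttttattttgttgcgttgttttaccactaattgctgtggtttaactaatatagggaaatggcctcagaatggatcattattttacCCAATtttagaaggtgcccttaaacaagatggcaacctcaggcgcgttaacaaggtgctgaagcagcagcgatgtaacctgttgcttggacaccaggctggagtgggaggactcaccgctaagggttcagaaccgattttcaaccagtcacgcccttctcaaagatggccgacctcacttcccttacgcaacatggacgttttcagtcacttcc
PSMB8: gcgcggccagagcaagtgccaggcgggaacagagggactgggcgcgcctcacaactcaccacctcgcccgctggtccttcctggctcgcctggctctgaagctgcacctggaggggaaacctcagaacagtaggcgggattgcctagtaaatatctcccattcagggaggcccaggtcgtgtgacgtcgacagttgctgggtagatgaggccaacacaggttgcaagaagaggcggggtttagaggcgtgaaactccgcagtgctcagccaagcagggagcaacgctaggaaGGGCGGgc

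RefSeq promoters were matched for 39 of the 45 genes and searched on both strands beside all 27305 promoters of the table. GAAANNGAA was present in 7 proteasome promoters (17.9%), against 8.3% of all promoters. The 7 were PSMA4, PSMB10, PSMB4, PSMC2, PSME1, PSME2 and PSMG4. TGACNNNGC, the antioxidant response element that NFE2L1 binds, was in 12 (30.8%), against 13.6% of all promoters. CCAAT was in 18 (46.2%, against 35.7%) and GGGCGG in 26 (66.7%, against 44.6%). Letter matches describe these windows only, and the motifs can overlap.

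The subunits of this 1 complex were listed at very unequal levels. PSMB10, the inducible counterpart of PSMB7, averaged 538 FPKM over the 12 libraries, and the next highest were the alpha subunit PSMA3 at 109 FPKM, the chaperone PSMG4 at 93.1 FPKM and the base scaffold PSMD1 at 57.5 FPKM. The median gene of the 45 averaged 7.82 FPKM, beside 6.0 FPKM over all genes tested. Only 20 of the 45 were above 0 in every library, and 3 averaged under 1 FPKM and were left out of the tests, which leaves 42. In bulk RNA, less of an mRNA in every cell and fewer cells that hold it cannot be told apart. The 3 left out were PSMB8 (0.462 FPKM, listed only in the PRMT4 inhibitor input and the DMSO input), the thymus-restricted PSMB11 (0.078 FPKM, in 1 library) and the lid subunit PSMD12 (0.642 FPKM).

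By part, the median of the mean level was 2.45 FPKM in the alpha ring, 7.82 FPKM in the beta ring, 5.01 FPKM for the ATPases, 28.7 FPKM for the other base subunits, 4.39 FPKM in the lid, 10.3 FPKM for the activators and 16.9 FPKM for the chaperones. Within a part the levels could lie further apart than these medians do. The alpha ring ran from 1.17 FPKM for PSMA2 to 109 FPKM for PSMA3, and the ATPases from 1.52 FPKM for PSMC2 to 43.5 FPKM for PSMC5. Among the protease subunits of the constitutive ring, PSMB7 averaged 13.9 FPKM, PSMB5 2.77 FPKM and PSMB6 2.52 FPKM.

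The level moved with gene layout. An exon of another gene lies on the opposite strand of 18 of the 45 genes, whose median level was 16.3 FPKM, against 4.60 FPKM for the 27 without one. The same split over all genes tested gave 9.95 FPKM for the 4868 with such an exon and 4.31 FPKM for the rest. PSMC1 (43.4 FPKM) shares 4671 exonic bases with NRDE2 (47.0 FPKM), PSMD1 shares 559 with the serotonin receptor gene HTR2B (31.0 FPKM), and PSMG4 shares 1388 with SLC22A23 (52.0 FPKM). Reads of such partners cannot be told apart unless the counting used the strand, and their part in the levels was not tested. PSMB10 and PSMA3 have no opposite-strand exon in the annotation. Some proteasome genes also have pseudogene copies, and how reads were divided among copies was not tested.

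**Figure D1:**
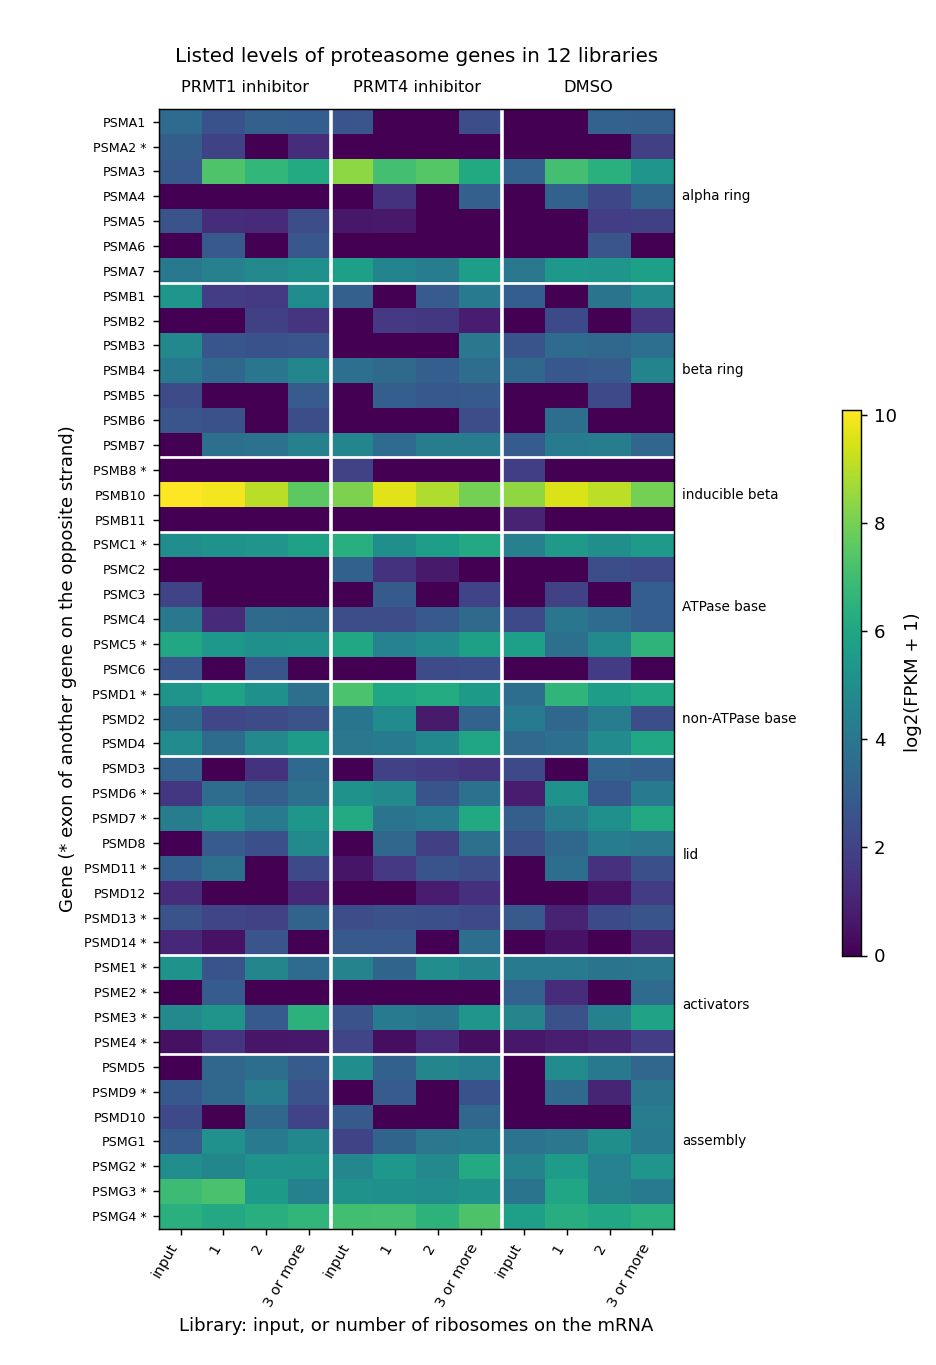
Level of the 45 proteasome genes, as log2(FPKM + 1), in 12 libraries (columns: input, then 1, 2 and 3 or more ribosomes, for the PRMT1 inhibitor, the PRMT4 inhibitor and DMSO), grouped by part of the complex. An asterisk marks the 18 genes with an opposite-strand exon of another gene. PSMB10 is the brightest row, and 25 of the 45 genes have at least 1 library at 0.

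PSMB10 carried a large share of the summed proteasome signal, and this share depended on the fraction. It made up 49.4 to 55.5% of the summed FPKM of the 45 genes with 1 ribosome, 40.9 to 46.6% with 2 ribosomes and 19.3 to 22.3% with 3 or more ribosomes. In the inputs it was 61.6% with the PRMT1 inhibitor, 19.1% with the PRMT4 inhibitor and 50.0% with DMSO. The 45 genes together held 0.25 to 0.461% of the FPKM of a library.

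Gradient position was the log2 difference between 3 or more ribosomes and 1 ribosome within a treatment. It sets the level of an mRNA on heavy polysomes against its level with a lone ribosome. FPKM is scaled within each library, so this is relative to other genes and does not show where most copies of an mRNA lay. Each difference was centred on its median over the 10705 genes tested. Over the 3 treatments taken as repeats, limma with Benjamini-Hochberg adjustment called 3 of the 42 proteasome genes. PSMB1 and PSMD4 were higher with 3 or more ribosomes than with 1 (2 of 42, beside 0.757% of all genes tested called higher), and PSMB10 was lower (1 of 42, beside 1.81% called lower). The treatments differ in the agent given, so that the error of this test holds both the spread between cultures and any effect of the inhibitors.

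PSMB10 was listed, for 1, 2 and 3 or more ribosomes in turn, at 972, 528 and 185 FPKM with the PRMT1 inhibitor, at 805, 471 and 249 FPKM with the PRMT4 inhibitor, and at 744, 550 and 250 FPKM with DMSO. In each treatment the level fell with the number of ribosomes, and no fraction of 3 or more ribosomes reached any of 1 ribosome. Its gradient position was −2.32 with the PRMT1 inhibitor, −1.64 with the PRMT4 inhibitor and −1.55 with DMSO, a pooled mean of −1.84 ± 0.21 (SE, 3 treatments; limma adjusted p = 0.0207), which is 3.58-fold lower with 3 or more ribosomes. With about 66 to 94 fragments in the heavy fractions and 260 to 341 with 1 ribosome, it was by far the best counted of the 45 genes. The intervals that follow take in counting error only, and that of the PRMT1 inhibitor does not allow for a different length correction in its libraries. The 95% interval for the ratio of 3 or more ribosomes to 1 was 0.138 to 0.237 with the PRMT1 inhibitor, 0.242 to 0.394 with the PRMT4 inhibitor and 0.264 to 0.427 with DMSO.

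Of the genes beside PSMB10 on its strand, 3 were looked up after the values were known. AC040162.1, which overlaps it, averaged 37.4 FPKM. The pancreatic protease gene CTRL averaged 375 FPKM and the plasma enzyme gene LCAT averaged 675 FPKM. LCAT was also lower with 3 or more ribosomes than with 1 (−1.47 ± 0.16 on the log2 scale; limma adjusted p = 0.0174), while CTRL had −0.48 ± 0.20 (limma adjusted p = 0.256). Whether reads from this cluster were shared between its genes was not tested.

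PSMD4, the ubiquitin receptor of the base, had the opposite profile. For 1, 2 and 3 or more ribosomes it was listed at 10.9, 26.3 and 44.9 FPKM with the PRMT1 inhibitor, at 17.2, 24.9 and 61.7 FPKM with the PRMT4 inhibitor, and at 12.01, 27.9 and 64.6 FPKM with DMSO. The level rose with each added ribosome class in every treatment, and the 3 heavy fractions did not overlap the 3 of 1 ribosome. The pooled gradient position was 2.06 ± 0.34 (limma adjusted p = 0.0443), 4.18-fold higher with 3 or more ribosomes.

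PSMB1, a non-catalytic beta subunit, was almost missing with 1 ribosome. For 1, 2 and 3 or more ribosomes it was listed at 2.57, 2.27 and 29.3 FPKM with the PRMT1 inhibitor, at 0, 6.38 and 16.7 FPKM with the PRMT4 inhibitor, and at 0, 13.6 and 26.4 FPKM with DMSO. The 3 heavy fractions all lay above the 3 of 1 ribosome. The pooled gradient position was 4.05 ± 0.58 (limma adjusted p = 0.0321), but with 2 libraries at 0 its size depends on the pseudocount, and it was 2.34 with 5 and 4.76 with 0.5 added to the FPKM.

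These 3 calls rest on all 3 treatments together. Leaving out any treatment kept the direction of each gene but moved all adjusted p-values to 0.274 to 0.301, with no call left by limma. At an unadjusted p under 0.05, 4 to 7 of the 42 genes were then higher (beside 5.82 to 6.17% of all genes tested) and 2 to 3 lower (beside 7.82 to 9.05%), PSMB1, PSMD4 and PSMB10 among them in each case. Over all alternatives run, the adjusted p ranged from 0.00341 to 0.301 for PSMB10, from 0.00774 to 0.301 for PSMB1 and from 0.00977 to 0.301 for PSMD4.

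**Figure D2:**
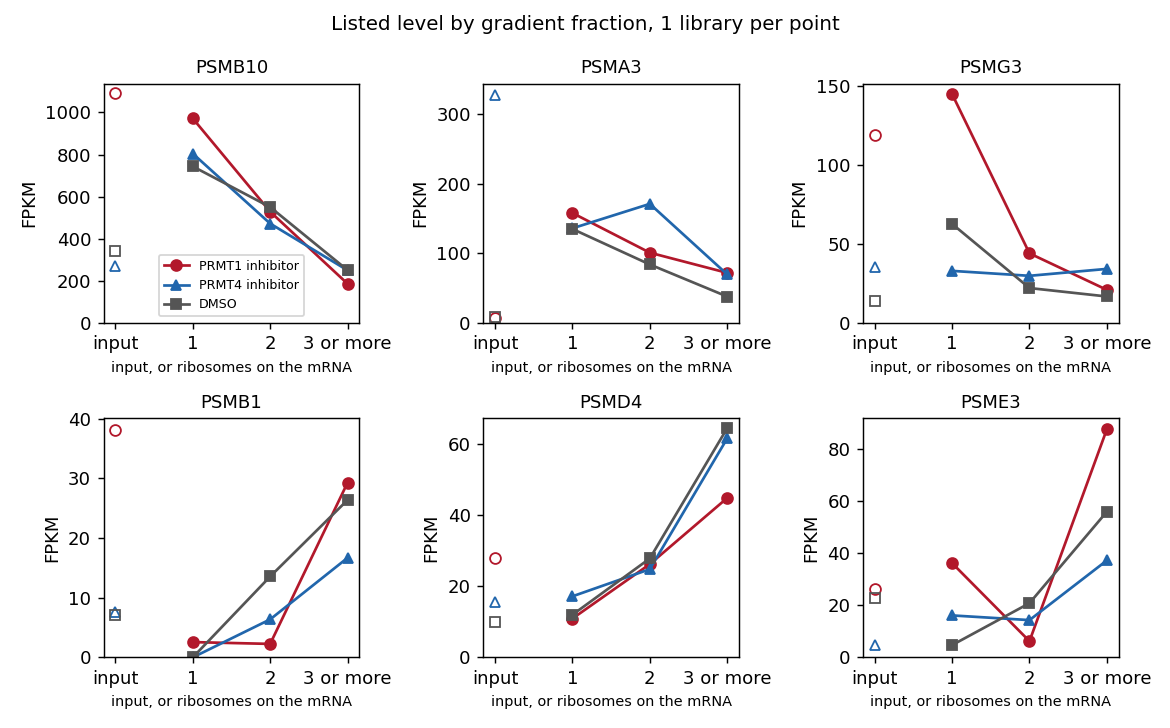
Listed FPKM of 6 proteasome genes in the input (open symbols) and with 1, 2 and 3 or more ribosomes (joined), for the PRMT1 inhibitor (circles), the PRMT4 inhibitor (triangles) and DMSO (squares), 1 library per point. PSMB10 and PSMA3 are lower with 3 or more ribosomes than with 1 in every treatment, PSMB1, PSMD4 and PSME3 are higher, and PSMG3 is nearly flat with the PRMT4 inhibitor.

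Other members did not pass the adjusted threshold, and their values follow as a description. PSMA3, an alpha ring subunit, had 158, 101 and 71.7 FPKM with 1, 2 and 3 or more ribosomes with the PRMT1 inhibitor, 136, 171 and 69.5 FPKM with the PRMT4 inhibitor and 135, 83.8 and 37.6 FPKM with DMSO. Its heavy fractions all lay below its fractions of 1 ribosome, with a pooled −1.26 ± 0.29 (limma adjusted p = 0.0842). PSME3, the nuclear activator cap, had 87.8, 37.3 and 56.1 FPKM with 3 or more ribosomes, against 36.3, 16.2 and 4.74 FPKM with 1 ribosome, for the PRMT1 inhibitor, the PRMT4 inhibitor and DMSO in that order (1.95 ± 0.53, limma adjusted p = 0.117). Its heavy fractions all lay above its fractions of 1 ribosome. PSME3 shares 300 exonic bases with BECN1 on the opposite strand, which averaged 4.88 FPKM. The lid subunit PSMD7 had 1.51 ± 0.46 (limma adjusted p = 0.15) and the base chaperone PSMD10 had 3.26 ± 0.74 (limma adjusted p = 0.0822), the last with 0 FPKM at 1 ribosome in all 3 treatments.

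The core chaperone PSMG3 differed between treatments in how it lay in the gradient. Its gradient position was −2.68 with the PRMT1 inhibitor, 0.10 with the PRMT4 inhibitor and −1.84 with DMSO, from 20.8, 34.1 and 16.6 FPKM with 3 or more ribosomes against 145, 32.8 and 62.6 FPKM with 1 ribosome. The other chaperones of the core particle stayed near the middle, with pooled values of 0.28 for PSMG1, 0.38 for PSMG2 and 0.34 for PSMG4. The base chaperones PSMD5 and PSMD9 had −0.20 and −0.16. Of these chaperones none passed the test.

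As a group, the 42 genes had a median gradient position of 0.41, beside a median of −0.07 over all genes tested. The median was 0.28 with the PRMT1 inhibitor, 0.58 with the PRMT4 inhibitor and 0.18 with DMSO. Pooled values of the 6 ATPases ran from 0.10 for PSMC3 to 1.36 for PSMC5, where PSMC2, PSMC3 and PSMC6 had a median of 0 fragments. The alpha ring ran from −1.26 for PSMA3 to 2.05 for PSMA1. The beta ring ran from −0.40 for PSMB6 to 4.05 for PSMB1, and the lid from −0.60 for PSMD11 to 2.06 for PSMD3. The medians were 0.70 for the ATPases, 0.63 for the alpha ring, 0.96 for the beta ring, 0.86 for the lid, 0.38 for the activators and 0.28 for the chaperones. Among the other base subunits PSMD1 and PSMD2 had −0.98 and −0.70, unlike PSMD4. The step from 2 to 3 or more ribosomes had medians of 0.17, 0.59 and 0.38 for the PRMT1 inhibitor, the PRMT4 inhibitor and DMSO, and the step from 1 to 2 had 0.04, 0.00 and −0.05.

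By a rule of size, with the same sign in all 3 treatments and a mean of at least 1.5-fold, 12 of 42 genes (28.6%) were higher with 3 or more ribosomes than with 1, beside 17.6% of all genes tested, and 3 (7.1%) were lower, beside 19.5%. The higher ones were PSMA1, PSMA4, PSMA7, PSMB1, PSMB3, PSMB4, PSMC6, PSMD10, PSMD4, PSMD7, PSMD8 and PSME3. The lower ones were PSMA3, PSMB10 and PSMD1. In PSMC6 with the PRMT1 inhibitor and with DMSO, and in PSMA4 with the PRMT1 inhibitor, both libraries were at 0 and the sign came from centring alone. PSMB3 with the PRMT1 inhibitor also counted as higher through centring, with 5.27 FPKM at 3 or more ribosomes, against 5.55 FPKM at 1 ribosome.

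**Figure D3:**
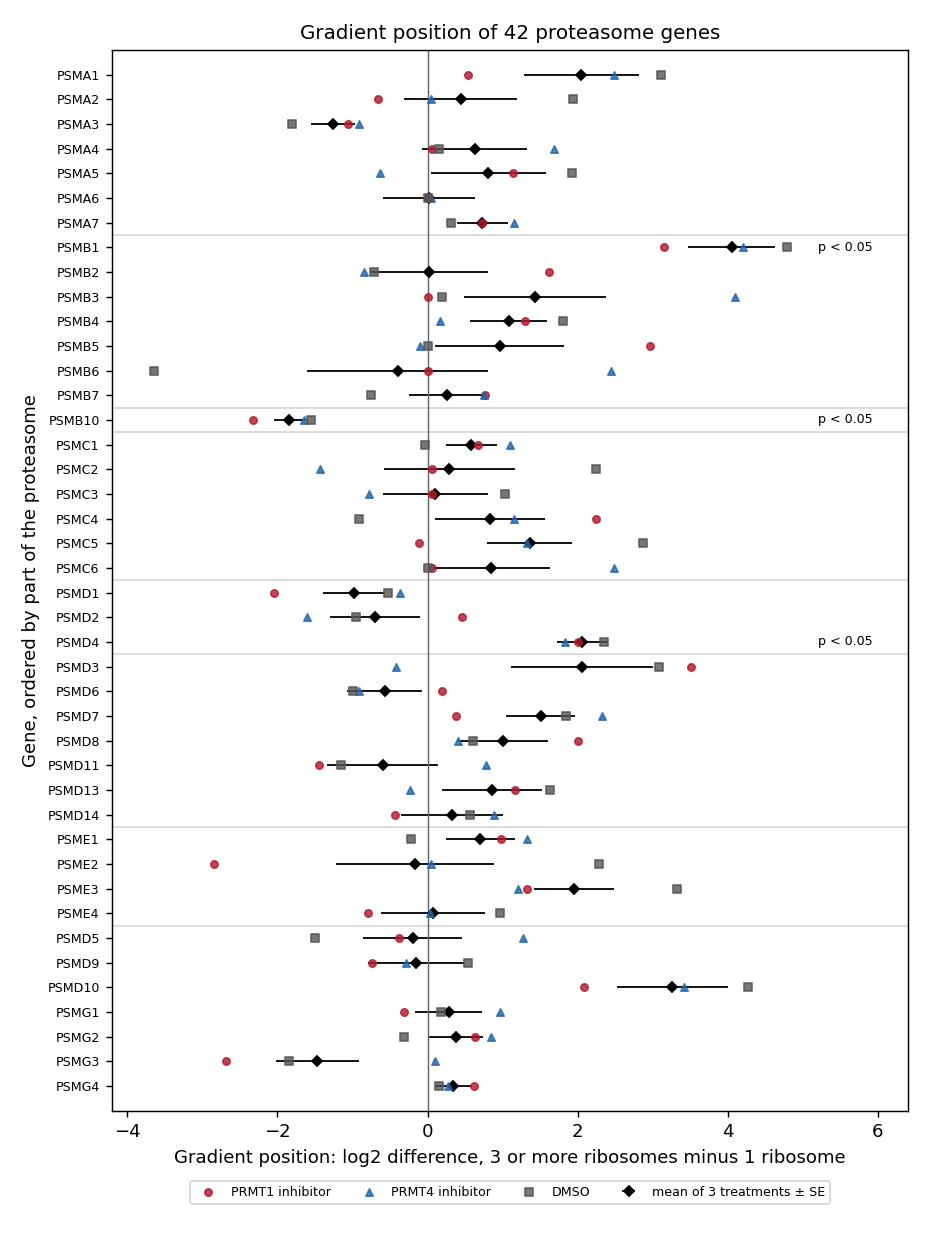
Gradient position (log2 difference, 3 or more ribosomes minus 1 ribosome, centred on the median of all genes tested) of the 42 tested proteasome genes in each treatment, with the mean of 3 treatments and its limma SE (black diamonds). The genes marked as passing limma's adjusted threshold of 0.05 are PSMB1 and PSMD4, which are higher, and PSMB10, which is lower.

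Polysome association set 3 or more ribosomes against the input. No proteasome gene passed limma's test on it (0 higher and 0 lower of 42, beside 0.00934% of all genes tested in each direction). At an unadjusted p under 0.05, PSMA4, PSMD4, PSMD8 and PSME3 were higher (beside 5.14% of all genes tested) and PSMB10 was lower (beside 5.45%). The largest value was that of the lid subunit PSMD8 at 3.12 ± 0.87 (limma adjusted p = 0.291), from 27.5, 12.1 and 15.02 FPKM with 3 or more ribosomes against 0, 0 and 4.70 FPKM in the inputs of the PRMT1 inhibitor, the PRMT4 inhibitor and DMSO. The chaperone PSMD9 had 1.87 ± 0.88 (limma adjusted p = 0.481) and PSME3 had 1.66 ± 0.61 (limma adjusted p = 0.373). At the other end, PSMD2, a base scaffold, had −1.38 ± 0.71 (limma adjusted p = 0.515), PSMB10 −1.27 ± 0.44 (limma adjusted p = 0.342) and PSMG3 −0.98 ± 0.58 (limma adjusted p = 0.588). Without the PRMT4 inhibitor libraries PSMB10 was called lower (−1.84 ± 0.38, limma adjusted p = 0.0354), and over all alternatives its adjusted p ranged from 0.0354 to 0.82.

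The median association of the 42 genes was 0.59, beside 0.06 over all genes tested, and 0.30 without the DMSO libraries. It was 0.00 with the PRMT1 inhibitor, 0.02 with the PRMT4 inhibitor and 0.49 with DMSO, whose input is the library that stood apart. The beta ring had a median of 0.79, from 0.33 for PSMB4 to 1.25 for PSMB7. The median was 1.17 for the chaperones, 0.94 for the lid and 0.63 for the alpha ring, and −0.04 for the ATPases, −0.23 for the activators and −0.49 for the other base subunits. By the same rule of size, 6 genes (14.3%) were higher in all 3 treatments, beside 11.9% of all genes tested, and 3 (7.1%) were lower, beside 13.5%. The higher ones were PSMB2, PSMD3, PSMD4, PSMD8, PSME3 and PSMG2, and the lower ones PSMB10, PSMD2 and PSMG3. PSMG3 with DMSO counted as lower through centring, with 16.6 FPKM at 3 or more ribosomes, against 13.7 FPKM in the input.

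The comparison of inhibitor with DMSO asks whether blocking PRMT1 or PRMT4 went with other levels or another loading of proteasome mRNAs. With 1 culture per treatment there is no test and no p-value, and genes were counted past fixed folds. Both inhibitor comparisons use the same DMSO libraries. Centring took away a log2 shift of all genes of 0.678 in the input of the PRMT1 inhibitor against that of DMSO, and of 0.567 in the input of the PRMT4 inhibitor, so that a gene at 0 in both inputs of a pair has −0.68 or −0.57.

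In the PRMT1 inhibitor input, 17 of 42 proteasome genes were at least 1.5-fold higher than in the DMSO input, beside 32.6% of all genes tested, and 14 were lower, beside 34.7%. The median of the 42 was 0.21. Among the 14, PSMA4, PSMA6, PSMB2, PSMC2 and PSMD5 were at 0 in both inputs and counted as lower through centring alone. PSMA7 also did, with 15.7 FPKM with the PRMT1 inhibitor, against 15.5 FPKM with DMSO. In the PRMT4 inhibitor input a gene at 0 in both inputs has −0.57, short of 1.5-fold, and is not counted. Among genes with a mean of at least 5 FPKM the highest were PSMG3, PSMD9 and PSMB1. PSMG3 had 119 FPKM with the PRMT1 inhibitor, against 13.7 FPKM with DMSO, a centred log2 difference of 2.35. PSMD9 had 5.94 against 0 FPKM, and PSMB1 38.2 against 7.09 FPKM (1.60). The lowest were PSMB7 (0 FPKM with the PRMT1 inhibitor, against 6.65 FPKM with DMSO), PSMD8 (0 against 4.70 FPKM) and PSMG1 (6.76 against 13.3 FPKM, −1.56). The DMSO values of PSMB7 and PSMD8 rest on about 2 fragments each. PSMB10 was listed at 1092 FPKM with the PRMT1 inhibitor, against 340 FPKM with DMSO, a centred difference of 1.0. Before centring its ratio was 3.21, with a 95% counting interval of 2.72 to 4.12, again without allowance for the length correction. On ribosomes its differences were 0.38, −0.06 and −0.43 with 1, 2 and 3 or more ribosomes, a mean of −0.04.

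In the 3 ribosome fractions the median PRMT1 inhibitor minus DMSO difference was −0.05. Only 2 genes were higher in the same direction in all 3 fractions with a mean of at least 1.5-fold (8.79% of all genes tested were), namely PSMG3 (mean 0.82) and the beta subunit PSMB4 (0.60). PSMG3 had 145, 44.0 and 20.8 FPKM with 1, 2 and 3 or more ribosomes with the PRMT1 inhibitor, against 62.6, 22.0 and 16.6 FPKM with DMSO. Lower were 6 genes, beside 7.24% of all genes tested: PSMA4, PSMA7, PSMB3, PSMC2, PSMD1 and PSMD5. PSMC2 was at 0 with 1 ribosome in both treatments, so that its sign there came from centring alone. PSMA7 is an alpha subunit with 10.9 fragments in its median library. It had 19.9, 26.2 and 32.1 FPKM with the PRMT1 inhibitor, against 41.2, 38.02 and 50.5 FPKM with DMSO. PSMD1 had 56.8, 32.7 and 12.4 FPKM with the PRMT1 inhibitor, against 96.3, 48.7 and 65.9 FPKM with DMSO, a mean of −1.21, and its opposite-strand partner HTR2B had 36.4, 29.5 and 23.6 FPKM, against 53.3, 26.9 and 8.02 FPKM with DMSO. PSMA4 was at 0 in all 4 PRMT1 inhibitor libraries, against 0 FPKM in the DMSO input and 7.76, 3.61 and 8.60 FPKM in the DMSO fractions. It was the only gene past the abundance rule, at least 1.5-fold the same way in all 4 libraries (0 higher and 1 lower, beside 0.897% and 1.09% of all genes tested), and its input value came from centring.

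By the translation rule, at least 2-fold in polysome association and 1.5-fold in gradient position the same way, 5 genes were higher with the PRMT1 inhibitor than with DMSO (11.9%, beside 15.6% of all genes tested) and 13 were lower (31.0%, beside 16% of all genes tested). The lower ones were PSMA1, PSMA2, PSMA5, PSMB1, PSMB10, PSMC2, PSMC3, PSMD1, PSMD10, PSMD14, PSMD7, PSMD9 and PSMG3, and the higher ones PSMA3, PSMB5, PSMB7, PSMD2 and PSMD8. Of the lower ones PSMA1, PSMA2, PSMA5, PSMC2, PSMC3, PSMD10, PSMD14 and PSMD9 were at 0 in the DMSO input, the library that stood apart. PSMC2 was also at 0 in every PRMT1 inhibitor library. Of the higher ones PSMB5 was at 0 in the DMSO input, and PSMB7 and PSMD8 were at 0 in the PRMT1 inhibitor input. Among genes of at least 5 FPKM the lower ones were 6 of 24, and among the 16 with a median of at least 5 fragments 4. The share of all genes at these higher minimums is not given, so these counts have nothing to be set beside. PSMB10, the best counted, had a difference of −1.38 in association and −0.78 in gradient position, from 185 FPKM with 3 or more ribosomes over 1092 FPKM in the input with the PRMT1 inhibitor, against 250 over 340 FPKM with DMSO. The lid deubiquitinase PSMD14 was at 0 with 3 or more ribosomes and at 1.27 FPKM in the input with the PRMT1 inhibitor, against 1.04 FPKM and 0 with DMSO, values of about 1 fragment. The median difference was −0.61 in association and −0.33 in gradient position. The association median was −0.06 among genes of at least 5 FPKM and 0.07 among those with no opposite-strand exon.

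The PRMT4 inhibitor input held the largest differences of the inputs. PSMA3 was listed at 328 FPKM with the PRMT4 inhibitor, against 8.06 FPKM with DMSO, a centred log2 difference of 4.62, which rests on about 84 and 2 fragments. PSMD5, a base chaperone, had 30.1 FPKM, against 0 FPKM with DMSO, and the lid subunit PSMD6 had 35.4 FPKM, against 0.75 FPKM with DMSO. PSMD1 stood at 152 FPKM, against 11.6 FPKM with DMSO (3.04), and PSMD7 at 71.2 FPKM, against 7.27 FPKM with DMSO (2.56). These 5 genes were spread over the alpha ring, base, lid and chaperones. At the other end were PSMB3 (0 FPKM with the PRMT4 inhibitor, against 5.10 FPKM with DMSO), PSMD8 (0 against 4.70 FPKM) and PSME3 (4.91 against 23.0 FPKM, −2.59). The DMSO values of PSMB3 and PSMD8 rest on about 1 and 2 fragments. In all, 15 genes were at least 1.5-fold higher, beside 35.9% of all genes tested, and 9 were lower, beside 26.1%, with a median of −0.33 that was 0.24 before centring.

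The ribosome fractions did not show most of these input gaps. PSMA3 had 136, 171 and 69.5 FPKM with the PRMT4 inhibitor, against 135, 83.8 and 37.6 FPKM with DMSO, a mean difference of 0.63. With PSMG4 (mean 0.71) and PSMB5 (2.14) it was among the 3 genes higher by the ribosome rule, beside 9.23% of all genes tested. PSMG4, a core chaperone listed in all libraries, had 133, 90.9 and 154 FPKM with the PRMT4 inhibitor, against 76.2, 66.3 and 83.7 FPKM with DMSO. PSMB5, the chymotrypsin-like protease, had 7.09, 5.79 and 6.30 FPKM with the PRMT4 inhibitor, against 0, 3.64 and 0 FPKM with DMSO, which is about 2 fragments per library. The 4 lower genes, beside 8.09% of all genes tested, were PSMA4, PSMA7, PSMD8 and PSMD9. No gene met the abundance rule (0 higher and 0 lower, beside 1.5% and 0.831% of all genes tested). The median over the fractions was −0.29, and 6 of the 7 alpha ring genes had a mean there at least 1.5-fold lower, beside 2076 of the 10705 genes tested, with a median of −0.88. Of those 6 only PSMA7 averaged over 5 FPKM, and only PSMA4 and PSMA7 met the ribosome rule.

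By the translation rule 5 genes were higher with the PRMT4 inhibitor than with DMSO (PSMB3, PSMB6, PSMC6, PSMG1 and PSMG2; 11.9%, beside 14.1% of all genes tested) and 6 were lower (PSMA1, PSMA2, PSMA5, PSMC2, PSMD10 and PSME4; 14.3%, beside 13.9%). Each of the 6 lower genes averaged under 5 FPKM. The counts depended on the scaling, with 4 higher and 10 lower without centring, 7 higher and 8 lower with upper-quartile scaling, and 4 higher and 2 lower with a pseudocount of 5. The share of all genes under these settings is not given, so these counts have nothing to be set beside. Without centring, a log2 shift of all genes of −0.647 stays in the association difference. PSMG2 was the best counted of the higher ones. In the input, with 1 and with 3 or more ribosomes it had 24.7, 40.5 and 70.7 FPKM with the PRMT4 inhibitor, against 21.8, 47.2 and 37.4 FPKM with DMSO. The median difference of the 42 genes was −0.01 in association and −0.08 in gradient position.

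On ribosomes, PSMB10 with the PRMT4 inhibitor differed from DMSO by less than counting error. It had 805, 471 and 249 FPKM in the 3 fractions, against 744, 550 and 250 FPKM with DMSO, and each ratio had a counting interval that included 1. For 3 or more ribosomes the ratio was 0.997 (95% interval 0.739 to 1.34). With the PRMT1 inhibitor the same ratio was 0.741. Its interval (0.507 to 0.977) does not allow for a different length correction in the libraries compared, so whether it includes 1 was not settled. With 1 ribosome the ratio for the PRMT1 inhibitor was 1.31 (1.11 to 1.54).

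The activator caps PSME1 and PSME2, which interferon is known to induce together, were listed at unequal levels. PSME1 had 35.7 FPKM in the PRMT1 inhibitor input and 21.7 FPKM in the PRMT4 inhibitor input, against 17.3 FPKM in the DMSO input, and was listed in all 12 libraries. After centring, its input differences from DMSO were 0.32 with the PRMT1 inhibitor and −0.26 with the PRMT4 inhibitor, both short of 1.5-fold. PSME2 was listed in 4 libraries, 3 of DMSO and the PRMT1 inhibitor fraction of 1 ribosome, at up to 10.6 FPKM, which is at most about 3 fragments, so that its profile could not be read at this depth. PSME4, the large nuclear activator, ran from 0.29 to 3.34 FPKM.

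**Figure D4:**
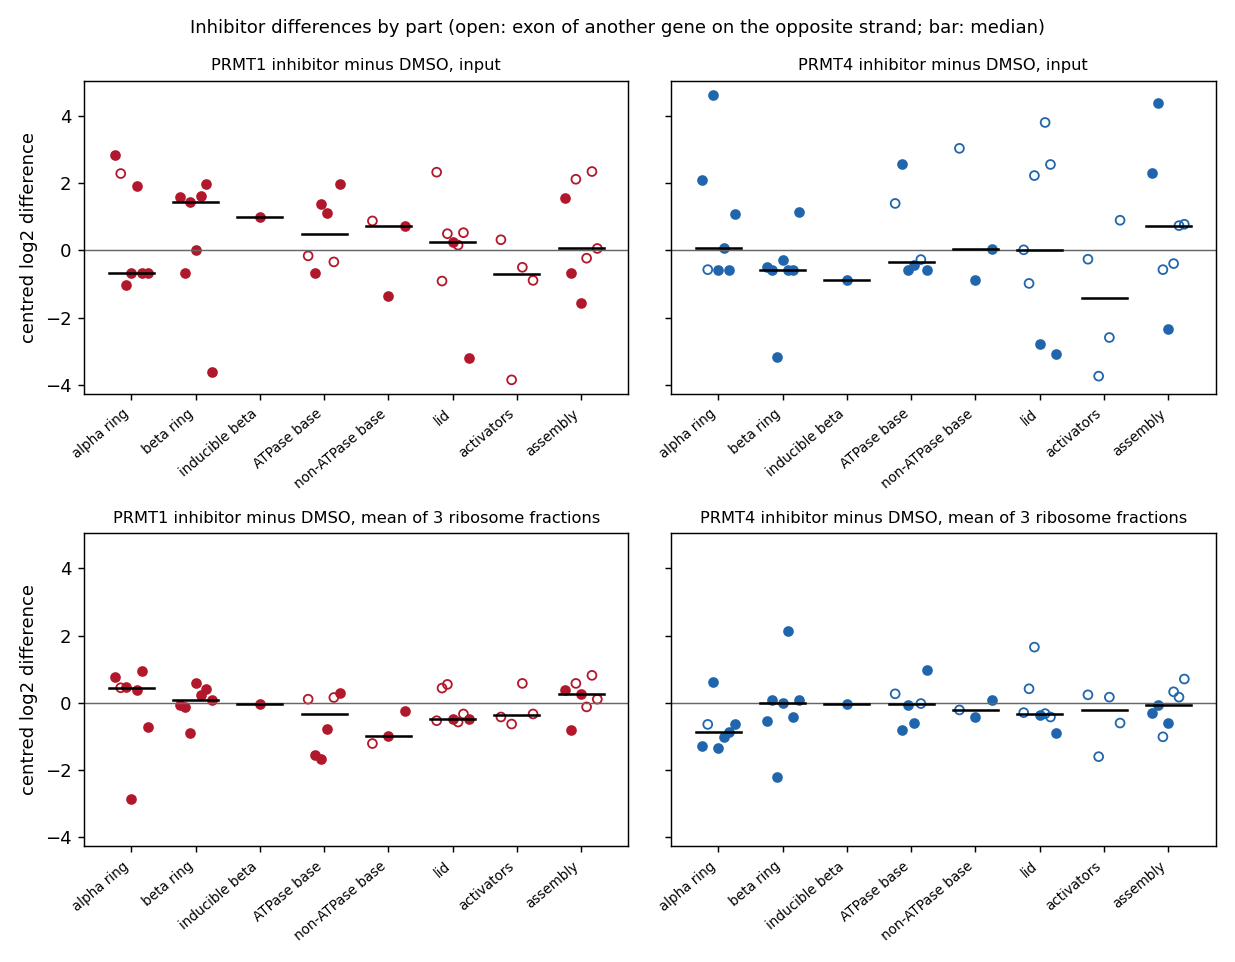
Centred log2 difference, PRMT1 inhibitor minus DMSO (left) and PRMT4 inhibitor minus DMSO (right), of the 42 tested proteasome genes by part, in the input (top) and as the mean of the 3 ribosome fractions (bottom). Each point is a gene, open where an opposite-strand exon of another gene exists, and bars are medians. The inputs spread from −3.85 to 4.62 and the fraction means from −2.87 to 2.14, with gene medians of 0.21 (PRMT1 inhibitor) and −0.33 (PRMT4 inhibitor) in the input.

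Other genes of the pathway were set beside the members, from a list of 28 partners, regulators and ubiquitin genes of which 24 were tested. In gradient position 1 was called higher by limma and 0 lower: the polyubiquitin gene UBB, with 2.58 ± 0.43 (adjusted p = 0.0443). At an unadjusted p under 0.05, 3 genes (UBB, NGLY1 and PSMF1) were higher and 0 lower, beside 8.06% and 11.87% of all genes tested. UBB and NGLY1, like NFE2L1 below, have an opposite-strand exon of another gene, and PSMF1 has none. In polysome association limma called 0 in either direction, with 2 (POMP and PSMF1) higher and 0 lower at an unadjusted p under 0.05, beside 5.14% and 5.45% of all genes tested. PSMF1, the gene of an inhibitor protein of the proteasome, had 2.34 ± 0.80 (limma adjusted p = 0.337). The list's medians were 0.36 in gradient position and 0.64 in association, close to the 0.41 and 0.59 of the 42 proteasome genes. NFE2L1, the activator of proteasome genes, averaged 6.85 FPKM, with a mean difference over the ribosome fractions of −0.93 for the PRMT1 inhibitor minus DMSO and −1.33 for the PRMT4 inhibitor minus DMSO. It met the ribosome and abundance rules as lower with the PRMT4 inhibitor, and neither rule with the PRMT1 inhibitor. The highest of the list was UCHL5, a proteasome-bound deubiquitinase, at 247 FPKM, which also has an opposite-strand exon of another gene. By the ribosome rule 1 gene of the list was higher and 1 lower with the PRMT1 inhibitor than with DMSO, beside 8.79% and 7.24% of all genes tested, and 1 was higher and 3 lower with the PRMT4 inhibitor, beside 9.23% and 8.09%. By the translation rule the counts were 1 higher and 1 lower with the PRMT1 inhibitor (beside 15.6% and 16% of all genes tested), and 2 higher and 8 lower with the PRMT4 inhibitor (beside 14.1% and 13.9%).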

How the data were processed

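RNA of HEK293T cells was measured in 12 libraries, 3 treatments by 4 gradient fractions. TRIzol extraction was followed by a NEBNext Ultra II Directional kit, which keeps the strand, per the labels' protocols. The deposited values are FPKM per Ensembl gene, rounded by the authors to 2 decimals. Per the submitters' processing notes, cutadapt 1.18, STAR 2.5.3a and RSEM were used on GRCh37. Read counts were not used, so a count test was not run.

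Of 15534 gene IDs, 15299 were matched to a symbol through GENCODE release 29 on GRCh38, which served for names, transcript lengths and opposite-strand exons. After 184 small-RNA or clone symbols were left out, 10705 genes that averaged 1 FPKM or more were tested. Values were log2(FPKM + 1), which understates differences of low genes, and each difference was centred on its median over those genes. Gradient position and polysome association were tested with limma 3.58.1 in R 4.3.3 (intercept over 3 paired differences, trended eBayes, two-sided, Benjamini-Hochberg over all genes tested). The fit was tested on simulated data, where the simulated fold changes were recovered closely but no changed gene passed the adjusted threshold at the minimum level used. Inhibitor comparisons have 1 library per group and no test.

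Depth was estimated from the steps of FPKM times length in single-transcript genes, of which 92.2 to 96.9% lay within 0.1 of a whole fragment. In a transcript of 1 kilobase, 1 fragment was worth 1.66 to 2.31 FPKM. Intervals of ratios are exact binomial 95% intervals on these estimates and take in counting error only. As a length correction, 125 bases were taken off in the PRMT1 inhibitor input and 175 in its fraction of 3 or more ribosomes. In the other libraries it was 150 bases, and the intervals do not allow for this difference. Named singly were the protease subunits, PSMD14, the activators, the chaperones and, in each comparison, the 3 highest and 3 lowest genes averaging at least 5 FPKM, beside members past a call or rule. The members, lists and rules were chosen with earlier results of these data known. Alternatives were other pseudocounts, minimum levels and scalings, genes above 0 in all libraries, genes with no opposite-strand exon, an additive fit and leaving out each treatment. A minimum of 5 median fragments was added after seeing the data. Promoters came from RefSeq. One marker gene is not reported here.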

Additional observations from a re-analysis of the deposited data

How the results depend on the processing

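Directions of PSMB10, PSMB1 and PSMD4 in gradient position were the same in every alternative that could be run for them. The count of genes called higher, 2 in the main analysis, was 1 with pseudocount 0.5, with upper-quartile scaling and with a median of at least 5 fragments, 0 with no minimum level, without centring and when any treatment was left out (0 to 0), and 3 among genes averaging 5 FPKM or more and among genes above 0 in all libraries. The count called lower, 1 in the main analysis, was 0 with no minimum and when any treatment was left out, and 2 among genes above 0 in all libraries. The share of all genes called in these alternatives is not given, so the counts have nothing to be set beside. At an unadjusted limma p under 0.05 that share moved too. Of all genes, 8.06% were higher in the main analysis, 5.52% with no minimum, 13.98% at 5 FPKM and 13.08% above 0 in all libraries. In the same order 11.87%, 8.69%, 15.11% and 14.62% were lower. The median gradient position, 0.41, was 0.63 at a mean FPKM of at least 5 and 0.73 with no opposite-strand exon. The median association, 0.59, was 0.29 with pseudocount 5. Leaving out a treatment gave 0.30 (without DMSO) at the lowest and 0.63 at the highest. It left 0 to 1 called lower, again with no share of all genes to set beside.

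For the PRMT1 inhibitor minus DMSO, the input median (0.21) was 0.63 with no minimum, 0.89 without centring, −0.17 at a mean FPKM of at least 5 and −0.13 among genes above 0 throughout. The ribosome median (−0.05) was 0.03 with pseudocount 0.5, −0.11 at 5 FPKM and −0.15 above 0 throughout. The gradient difference (−0.33) was 0.12 at 5 FPKM, −0.02 with no opposite-strand exon and 0.03 at 5 fragments. The association difference (−0.61) was −0.21 with pseudocount 5, −0.90 with no minimum, −0.06 at 5 FPKM, −1.34 without centring, −0.13 above 0 throughout and 0.07 with no opposite-strand exon.

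For the PRMT4 inhibitor minus DMSO, the input median (−0.33) was −0.02 with no minimum, 0.24 without centring, 0.00 with upper-quartile scaling, −0.11 above 0 throughout, −0.57 with no opposite-strand exon and 0.38 at 5 fragments. The ribosome median (−0.29) was −0.25 and −0.20 with pseudocounts 0.5 and 5, −0.21 with no minimum, −0.09 at 5 FPKM, −0.07 above 0 throughout, −0.41 with no opposite-strand exon and 0.03 at 5 fragments. The gradient difference (−0.08) was 0.18 at 5 FPKM and 0.58 at 5 fragments, and the association difference (−0.01) was −0.66 without centring. The cause of these moves was not tested, beyond the fewer genes that a higher minimum leaves. No pairing of cultures between treatments was possible because the labels give no replicate numbers to block on. The main test itself pairs the fractions within each treatment. A median of 2.45 fragments per library limits the precision of all of these values.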
